A study of Mus musculus with 16 samples.

Results

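Acta2, Tagln, Cnn1, Myl9, Des, Myocd, Pdgfrb and Cspg4 mark the mural cells of blood vessels, that is smooth muscle cells and pericytes. They are 8 of 22096 gene symbols measured in sorted endothelial cells of mouse embryos with different Notch1 alleles. The 8 genes were selected on their measured FPKM values, since the list was proposed with earlier results of these libraries known. Their levels by genotype are therefore given as a description, with standard errors and without tests. FPKM gives sequenced fragments relative to transcript length and library depth. All levels below are FPKM divided by a scaling factor per library.

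Cells carrying CD31, a surface protein of endothelium also known as PECAM1, were sorted from whole embryos at embryonic day 9.5, and total RNA was sequenced in 16 libraries. In 12/- embryos (3 libraries), an allele whose Notch1 intracellular domain was exchanged for that of Notch2 stood opposite a deleted Notch1 allele, and the labels report a disturbed endothelium. In 12/vg embryos (1 library), the same exchange allele stood opposite an allele with glycine in place of a valine, which yields a less stable intracellular domain, and the labels report a partial disturbance. The other genotypes had 1 wild-type allele opposite the exchange allele (+/12), the vg allele (+/vg) or the deleted allele (+/-), or carried wild-type alleles alone (+/+), with 3 libraries each. The labels describe these last 4 as normal, and they are called normal genotypes here. The labels name no tissue-specific driver for these alleles and do not say how many embryos made up a library.

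Mural cells wrap the endothelial tube, give it contractile force and stabilise it. Endothelial cells release the growth factor PDGF-B, mural precursors carry its receptor PDGFRB, and Notch signals from endothelium to neighbouring cells help them to mature. In the nucleus, serum response factor binds a DNA element called the CArG box and, with the coactivator myocardin or with myocardin-related factors, drives contractile genes. In the early embryo several of these genes, Acta2 and Tagln among them, are also active in heart muscle and in muscle precursors of the somites, so that they are not specific to vessel walls at this stage.

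The promoters of Acta2 and Myl9 are shown because both hold matches to the element bound by serum response factor, and that of Acta2 also to the core bound by the Notch effector RBPJ. Each is the stretch of 250 bases that ends just before the transcript start, 5′ to 3′ on the strand of the gene, from RefSeq (GRCm38.p6). Capitals mark the CArG box (CC, 6 bases of A or T, GG), the same element with 1 G or C among the 6 inner bases, and TGGGAA, the core bound by RBPJ.
Acta2, chr19:34255374-34255623, minus strand: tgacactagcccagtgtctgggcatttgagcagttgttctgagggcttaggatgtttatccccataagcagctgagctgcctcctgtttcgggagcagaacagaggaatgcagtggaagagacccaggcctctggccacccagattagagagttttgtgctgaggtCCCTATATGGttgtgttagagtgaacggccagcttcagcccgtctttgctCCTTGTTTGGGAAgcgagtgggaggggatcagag
Myl9, chr2:156775214-156775463, plus strand: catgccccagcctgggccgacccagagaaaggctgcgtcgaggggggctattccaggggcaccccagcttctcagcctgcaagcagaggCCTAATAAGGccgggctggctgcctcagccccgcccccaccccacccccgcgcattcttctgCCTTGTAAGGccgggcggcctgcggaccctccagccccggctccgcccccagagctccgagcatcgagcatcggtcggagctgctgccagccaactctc

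The Acta2 window held 2 CArG-like elements, at 84 to 75 and at 34 to 25 bases before the start, and TGGGAA at 27 to 22, overlapping the second. The Myl9 window held a CArG box at 161 to 152 and a CArG-like element at 99 to 90 bases before the start. Searched on both strands, a CArG box was found in 1.47% of all 32851 promoter windows of this length, a CArG-like element in 7.24% and TGGGAA in 21.6%. The windows of Des, Cnn1 and Cspg4 held no match to these letters. Promoter windows of Tagln, Myocd and Pdgfrb were not used here.

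The sort was checked against 12 pan-endothelial genes, all of which had a mean of at least 1 FPKM in each genotype. Their summed level was 1028 to 1225 in 12/- libraries, 997 in the 12/vg library and 872 to 1034 in the 12 libraries of normal genotypes. Aligned sequence was 1.11 to 1.80 gigabases in 14 libraries, but 0.189 in +/- replicate 2 and 0.262 in 12/vg. The file names carry library numbers in a low range (203 to 248, 9 libraries) and a high range (371 to 380, 7 libraries), which the labels do not explain. All 12/-, 12/vg and +/12 libraries lay in the low range, all +/+ libraries in the high range, and +/vg and +/- each had replicate 3 in the low range and 2 libraries in the high range.

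By level the 8 genes spanned a wide range, and only 5 of them passed the filter of a mean of 1 FPKM over all libraries. Per unit of transcript length, Myl9 was highest with a mean of 27.8 scaled FPKM over 16 libraries, followed by Acta2 (7.13), Tagln (3.94), Des (1.22) and Pdgfrb (1.13). Cnn1 (0.419), Myocd (0.133) and Cspg4 (0.0951) were under the filter and did not enter the fit across genes. Myl9 exceeded Acta2 in 16 of 16 libraries, Acta2 exceeded Tagln in 15 and Tagln exceeded Des in 16. Des and Pdgfrb changed places from library to library, with Des higher in 8 of 16, and Myocd exceeded Cspg4 in 9 of 16. Pdgfrb and Des, just inside the filter, reached 1 scaled FPKM in 8 and 7 libraries, while Cnn1, just outside it, reached it in 0.

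Acta2, Tagln, Cnn1 and Des stood far below their non-muscle relatives. Acta2 averaged 7.13 scaled FPKM, against 2384 for the cytoplasmic actin Actb, a ratio of 334. Tagln averaged 3.94, against 266 for Tagln2, and Cnn1 averaged 0.419, against 117 and 71.3 for the calponins Cnn2 and Cnn3. The muscle filament gene Des averaged 1.22, against 906 for vimentin (Vim), the intermediate filament of endothelium and mesenchyme. Myl9 came closer, with 27.8, against 102 for Myl12b. Pdgfrb averaged 1.13, against 0.920 for the related receptor Pdgfra of mesenchyme. Acta2 and Myl9 share long stretches of near-identical coding sequence with such relatives, so that their estimates are uncertain where reads map to several copies.

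**Figure D1:**
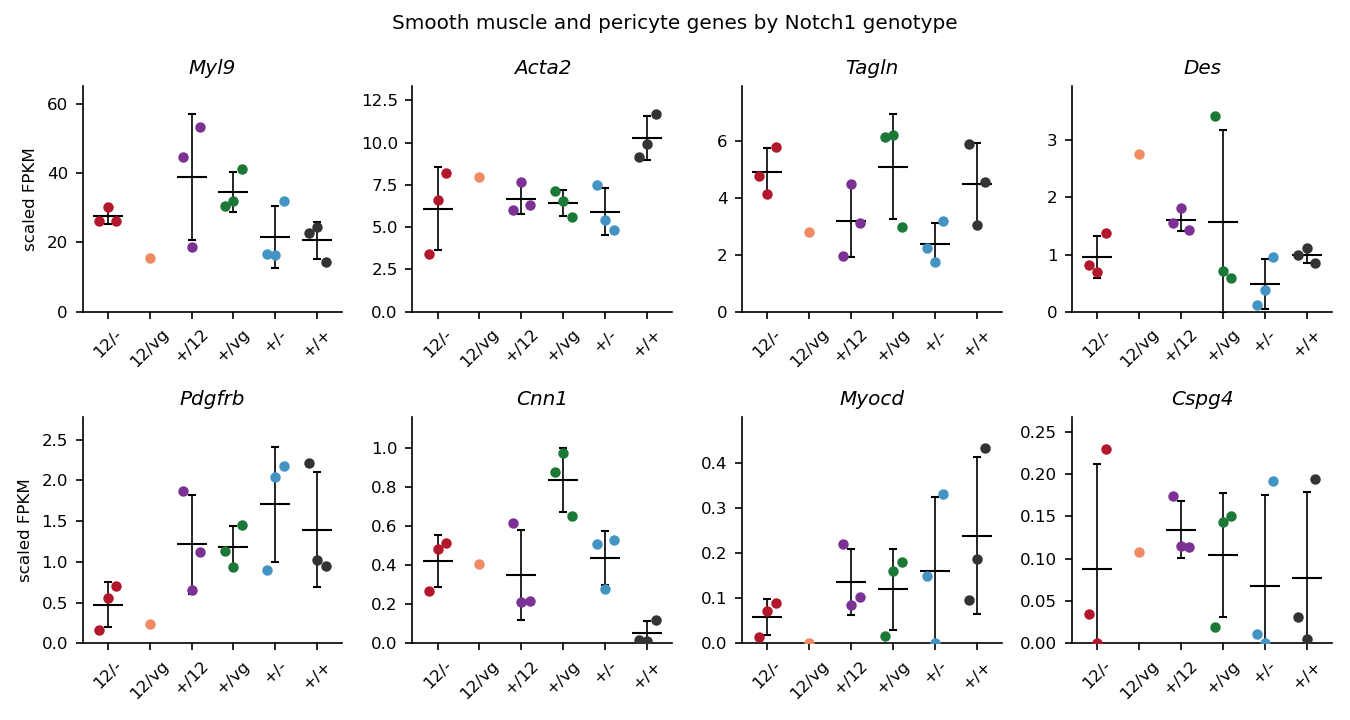
Scaled FPKM (linear axis from 0) of the 8 genes in each library, by Notch1 genotype; each point is a library, and the horizontal line and bar give the mean and SD of 3 libraries (bars are cut at 0). Acta2 is highest in the 3 +/+ libraries (9.16 to 11.7), Cnn1 is lowest there (0.0130 to 0.121), and Pdgfrb is low in 12/- (0.163 to 0.704) and in 12/vg (0.241).

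Acta2 encodes smooth muscle α-actin, the main contractile actin of vessel walls (chromosome 19, 34315581 to 34329826, mm9). It had 3.43, 6.63 and 8.22 scaled FPKM in 12/- libraries, 7.94 in 12/vg and 6.04, 7.65 and 6.31 in +/12. It had 7.15, 6.56 and 5.59 in +/vg and 7.52, 5.42 and 4.84 in +/-, against 9.16, 9.90 and 11.7 in +/+. Every +/+ library lay above every other library, a gap between 8.22 in the other 13 and 9.16 in +/+. Among all 10550 genes that passed the filter, 0.455% had the other 13 libraries below +/+ in this way, and 0.389% had them above.

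The log2 difference of scaled FPKM + 1 in Acta2 from +/+ was -0.73 ± 0.25 in 12/-, -0.55 ± 0.25 in +/12, -0.60 ± 0.25 in +/vg and -0.71 ± 0.25 in +/- (SE from the spread within all genotypes, n = 3 each). These differences share the same 3 +/+ libraries. Without 12/- replicate 1, the lowest library, the difference of 12/- from +/+ was -0.42, and that from +/12 turned from -0.17 ± 0.25 to 0.14. Set against the mean of the normal genotypes, 12/- stood at 6.09 ± 2.44 scaled FPKM (SD, n = 3), against 7.32 ± 2.03 (SD, n = 12), a log2 difference of -0.26 ± 0.20 that became 0.05 without that replicate. In this bulk RNA, fewer cells of a type and less RNA per cell cannot be told apart.

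The library numbers bear on the Acta2 values, since all +/+ libraries were in the high range. Within that range the 4 libraries of +/vg and +/- had 5.42 to 7.52 scaled FPKM, against 9.16 to 11.7 in +/+. With the number range as a covariate, the difference from +/+ shrank to -0.43 for 12/- and to -0.26 for +/12. It was -0.50 for +/vg and -0.61 for +/-. That covariate is estimated from +/vg and +/- alone. The sum of cardiac genes was also high in +/+ replicates 1 and 3. The summed level of 17 cardiomyocyte markers was 17.3 to 55.3 in the other 13 libraries, against 80.4, 26.5 and 85.9 in +/+ replicates 1, 2 and 3, and Acta2 was 9.90 in +/+ replicate 2. Of the markers, Myl2, the myosin light chain of the ventricle, had 10.1 and 7.76 in +/+ replicates 1 and 3 and 1.81 in replicate 2. Myl7 was also highest in replicates 1 and 3, at 11.5 and 15.9. Actc1, the most abundant of the markers, had 26.1 and 27.1 in +/+ replicates 1 and 3 and 14.5 in replicate 2. It reached 26.6 in +/12 replicate 1. Other markers did not follow. Tnni3 had 0.482 and 0.185 in +/+ replicates 1 and 3, against up to 7.11 in +/- replicate 2. Tnni1 had 11.2 and 9.84 there, against up to 22.6 in +/- replicate 3. Of 9 cardiomyocyte genes with a mean of at least 1 FPKM, limma called 0 against +/+ at an adjusted p under 0.05. At an unadjusted p under 0.05, 2 of the 9 were lower in 12/-, 3 in +/12, 1 in +/vg and 2 in +/-. The part of heart cells in the Acta2 values was not tested.

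Tagln encodes transgelin, an actin-binding protein of early smooth muscle (chromosome 9, 45737711 to 45744141, mm9). It had 4.78, 4.15 and 5.81 scaled FPKM in 12/- and 2.79 in 12/vg, against 1.95, 4.47 and 3.13 in +/12. In the remaining genotypes it had 6.13, 6.21 and 2.98 in +/vg, 2.25, 1.76 and 3.19 in +/- and 5.89, 3.06 and 4.56 in +/+. The 12/- libraries overlapped every normal genotype except +/-, all of whose libraries lay below them, as they did for 7.74% of the 10550 genes. The log2 difference was 0.54 ± 0.31 for 12/- against +/12 and 0.13 ± 0.31 for 12/- against +/+. For +/- against +/+ it was -0.68 ± 0.31, with the ranges overlapping between 3.06 and 3.19.

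Cnn1 encodes calponin 1, a regulator of actomyosin in differentiated smooth muscle (chromosome 9, 21903697 to 21913665, mm9). It was under 1 scaled FPKM in every library. It had 0.268, 0.486 and 0.513 in 12/-, 0.406 in 12/vg and 0.618, 0.213 and 0.219 in +/12. It had 0.879, 0.978 and 0.654 in +/vg and 0.509, 0.278 and 0.528 in +/-, against 0.0170, 0.0130 and 0.121 in +/+. Here the +/+ libraries lay below all 13 others, the reverse of the order seen for Acta2, and +/vg lay above every other library. Cnn1 was under the filter, so the shares given for Acta2 do not cover it, and none was computed for such low genes.

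The Cnn1 values rest on little sequence. The aligned sequence over the transcript amounted to 102 to 3374 bases in the other 13 libraries and to 49.7, 50.2 and 404 bases in the 3 +/+ libraries, so that the counting error of the +/+ values is large. The log2 difference from +/+ was 0.43 ± 0.13 in 12/-, 0.35 ± 0.13 in +/12, 0.80 ± 0.13 in +/vg and 0.45 ± 0.13 in +/-. With a pseudocount of 0.1 in place of 1 these became 1.83, 1.54, 2.70 and 1.88. Within the high range of library numbers, the 4 libraries of +/vg and +/- had 0.278 to 0.978 scaled FPKM.

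Myl9 encodes a regulatory light chain of smooth muscle and non-muscle myosin (chromosome 2, 156601200 to 156607393, mm9), which endothelium also uses. It had 26.3, 30.2 and 26.2 scaled FPKM in 12/-, 15.5 in 12/vg and 44.7, 18.5 and 53.3 in +/12, the widest spread of any genotype. It had 30.5, 31.9 and 41.0 in +/vg and 16.5, 16.3 and 31.8 in +/-, against 22.7, 24.5 and 14.5 in +/+. The 12/- and the +/vg libraries all lay above the +/+ libraries, with log2 differences of 0.44 ± 0.39 and 0.74 ± 0.39. So did those of 10.4% of all genes for 12/- and 7.30% for +/vg. For +/12 against +/+ the difference was 0.79 ± 0.39 with overlapping libraries.

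Outside +/+, Myl9 of the normal genotypes averaged higher in the low range of library numbers. The 5 libraries of normal genotypes in the low range averaged 37.9 scaled FPKM and the 4 of +/vg and +/- in the high range averaged 23.8, against 20.5 in +/+. With the number range as a covariate, the difference from +/+ was -0.21 for 12/- and 0.14 for +/12. That covariate is estimated from +/vg and +/- alone, and which of range and genotype goes with the level cannot be told apart for the other genotypes.

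Des encodes desmin, the intermediate filament of muscle and a marker of pericytes (chromosome 1, 75356919 to 75364290, mm9). It had 0.813, 0.695 and 1.38 scaled FPKM in 12/- and 2.76 in 12/vg, against 1.55, 1.81 and 1.44 in +/12. All 12/- libraries thus lay below all +/12 libraries, with a log2 difference of -0.42 ± 0.35. In +/vg it had 3.42, 0.706 and 0.590, where replicate 1 was the highest of all libraries, in +/- 0.119, 0.379 and 0.959, and in +/+ 1.00, 1.11 and 0.856. For +/vg against +/+ the difference of 0.20 ± 0.35 turned to -0.27 without +/vg replicate 1, and for +/12 against +/+ it was 0.39 ± 0.35 with no overlap.

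Myocd encodes myocardin, the coactivator of serum response factor that is restricted to smooth and cardiac muscle (chromosome 11, 64990072 to 65083491, mm9). It had 0.0138, 0.0725 and 0.0902 scaled FPKM in 12/- and was listed at 0 in 12/vg, against 0.220, 0.0856 and 0.102 in +/12. In +/vg it had 0.0163, 0.161 and 0.181, in +/- 0.148, 0 and 0.329, and in +/+ 0.0948, 0.187 and 0.432. Both zeros were in the shallow libraries. The 12/- libraries lay below the +/+ libraries, at 0.0902 and 0.0948 by a narrow margin, and the value of 12/- replicate 1 rests on 112 bases of aligned sequence. No share of genes separating in this way was computed for genes under the filter, Myocd among them. Of 2 annotated transcripts, 1 held 79.8% of the summed level.

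Pdgfrb, the receptor through which mural precursors sense endothelial PDGF-B, showed the lowest values in the embryos with a disturbed endothelium (chromosome 18, 61204804 to 61244721, mm9). It had 0.163, 0.559 and 0.704 scaled FPKM in 12/- and 0.241 in 12/vg, against 1.86, 0.657 and 1.13 in +/12. In +/vg it had 1.14, 0.941 and 1.45, in +/- 0.896, 2.03 and 2.18, and in +/+ 2.21, 1.02 and 0.953. A single normal library, +/12 replicate 2 at 0.657, lay below the highest 12/- library, and the 12/- libraries lay below all those of +/vg, +/- and +/+. Of all genes, 10.5% lay lower in 12/- in this way against +/vg (10.2% lay higher), 6.41% against +/- and 9.46% against +/+. The 4 libraries with a 12 allele and no wild-type allele were 4 of the 5 lowest of the 16. No share of all genes with this order was computed. The 12/vg value comes from a shallow library and rests on 324 bases of aligned sequence.

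The mean Pdgfrb level was 0.476 ± 0.280 scaled FPKM in 12/- (SD, n = 3), against 1.37 ± 0.555 in the normal genotypes (SD, n = 12), a log2 difference of -0.67 ± 0.22. It was -0.57 ± 0.28 against +/12 and -0.68 ± 0.28 against +/+. Because the level is near the pseudocount of 1, the scale compresses these differences. With a pseudocount of 0.1 they were -1.41, -1.24 and -1.43. Leaving out each library in turn moved the difference from the normal genotypes between -0.78 and -0.51. Within the low range of library numbers, 12/- libraries had 0.163 to 0.704 scaled FPKM, against 0.657 to 2.18 in the 5 normal libraries.

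The sum of markers of mesenchyme, a tissue that also expresses Pdgfrb, was low in 2 of the 3 12/- libraries. The summed level of 11 mesenchymal genes was 13.8, 14.2 and 29.1 in 12/- replicates 1, 2 and 3 and 21.3 in 12/vg, against 17.2 to 50.5 in the normal genotypes. Replicate 3, with the highest mesenchymal sum of the 12/- libraries, also had their highest Pdgfrb. Col3a1, a fibrillar collagen and the most abundant of the 11, had 4.68, 2.46 and 8.71 scaled FPKM in 12/- and 5.14 in 12/vg, against 2.80 to 28.7 in the normal genotypes. Postn had 0.486 and 1.68 in 12/- replicates 1 and 2, against a median of 2.66 over the 16 libraries. Not all markers followed the sum. In 12/- replicate 2, Col1a1 had 1.79 and Lum 0.516, against medians of 1.23 and 0.290. The part of mesenchymal cells in the Pdgfrb values was not tested.

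Cspg4 encodes the proteoglycan NG2, a surface marker of pericytes (chromosome 9, 56712911 to 56747677, mm9), and was the lowest of the 8 genes. It had 0.0345, 0 and 0.229 scaled FPKM in 12/- and 0.108 in 12/vg, against 0.173, 0.115 and 0.114 in +/12. In +/vg it had 0.0197, 0.143 and 0.150, in +/- 0.0114, 0 and 0.192, and in +/+ 0.0315, 0.00523 and 0.194. Every genotype with 3 libraries overlapped every other, and the log2 difference of 12/- from the normal genotypes was -0.01 ± 0.08.

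**Figure D2:**
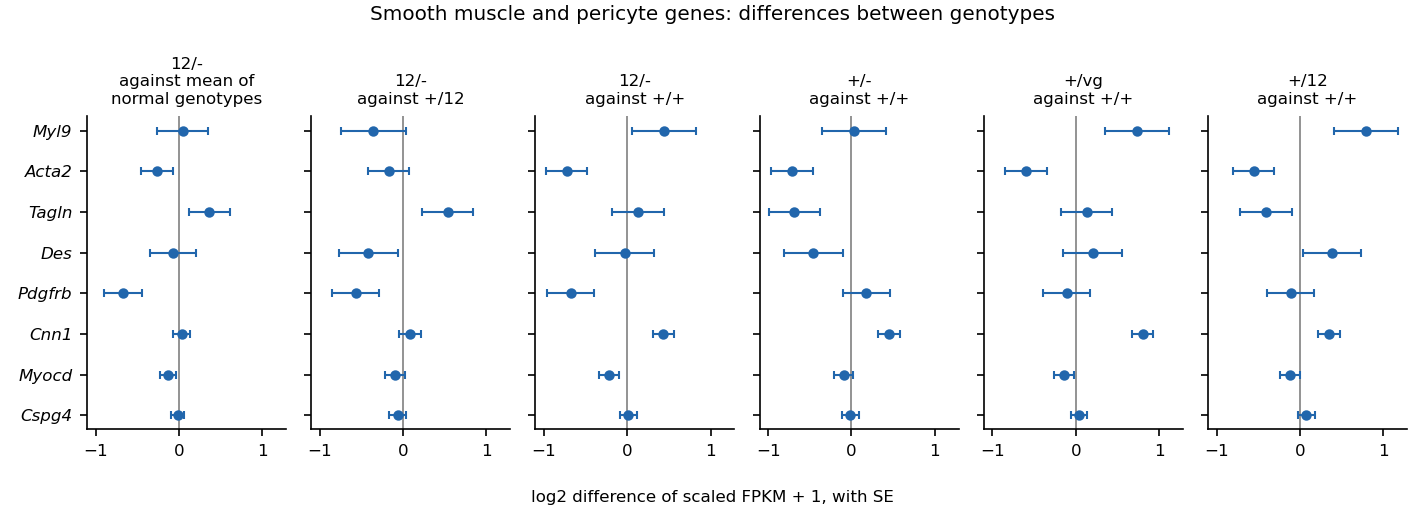
Log2 difference of scaled FPKM + 1 (horizontal axis) for the 8 genes (rows, from highest to lowest mean level) in 6 genotype comparisons (panels), the first-named genotype minus the second; bars are the SE. Pdgfrb lies left of 0 in the 3 panels of 12/- (-0.67, -0.57 and -0.68), while Acta2 lies left of 0 and Cnn1 right of 0 in all 4 panels against +/+.

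The differences of the 8 genes had mixed signs. For 12/- against the mean of the normal genotypes 3 differences were positive and 5 negative with a median of -0.04, and the medians were -0.14 against +/12 and -0.01 against +/+. For +/-, +/vg and +/12 against +/+ the medians were -0.05, 0.08 and -0.02. The median over the 10550 genes tested lay within 0.01 of 0 in each comparison.

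No limma call is given for the 8 genes, since their own values chose them. As a background for the lists below, limma called 0.720% of all genes tested higher and 0.0664% lower in 12/- against the mean of the normal genotypes (adjusted p under 0.05), 0.209% and 0% against +/12, and 0.540% and 0.0664% against +/+. At an unadjusted p under 0.05 the counts of higher and lower genes were 693 and 522 against the normal genotypes, 351 and 208 against +/12 and 735 and 551 against +/+. For +/-, +/vg and +/12 against +/+ limma called 0% of genes, while at an unadjusted p under 0.05 the counts were 386 and 406, 463 and 330, and 321 and 246, with the higher genes given first.

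How often the libraries of the compared groups separated depended on the comparison for the 5 genes that passed the filter. Between 12/- and the 12 normal libraries 0 of the 5 genes separated, where 1.91% of all genes lay higher and 0.929% lower in 12/-. Des lay lower in 12/- against +/12, where 7.93% of all genes lay higher and 6.84% lower. For 12/- against +/+, 3 of the 5 separated, with Myl9 higher and Acta2 and Pdgfrb lower, where 10.4% of all genes lay higher and 9.46% lower. For +/- against +/+, Acta2 lay lower (4.02% of all genes higher, 3.77% lower). For +/vg against +/+, Myl9 lay higher and Acta2 lower (7.30% higher, 6.28% lower), and for +/12 against +/+, Des lay higher and Acta2 lower (6.60% higher, 5.97% lower).

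Over the 28 pairs of the 8 genes, Pearson's r of log2 levels in the 16 libraries ran from -0.43 for Acta2 with Myl9 to 0.56 for Cspg4 with Myocd, with a median of 0.10. These values share the scaling and the depth of each library, and the last pair is near the limit of detection. The genes whose pattern over the 16 libraries was most like that of Acta2 were Polr2k, Gmcl1, Snora23, Dclre1c and Racgap1 (r from 0.75 to 0.78). For Tagln they were Nol12, Egfl7, 2610002I17Rik, Flrt3 and Kri1 (0.84 to 0.88). For Pdgfrb they were Lcor, Taf9b, Smcr8, Itfg2 and Prickle2 (0.80 to 0.84), and for Des Zbtb8a, Baz2a, Ercc6, Tinagl1 and Zfp740 (0.75 to 0.83). Only genes that passed the filter were searched, without predicted genes, pseudogenes and microRNAs, so that Cnn1, Myocd and Cspg4 could not appear. Of the 5 genes that passed it, none was among the 5 most alike of any of these 4. The genes named are the top of a search over many genes in only 16 libraries. Whether their r exceeds what unrelated genes reach in such a search was not tested.

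Other contractile genes spanned a wide range of levels. Of 14 smooth muscle genes besides the 8, the most abundant included several that non-muscle cells also use. The tropomyosin Tpm1 averaged 148 scaled FPKM and the LIM protein Csrp1 45.1. The actin cross-linker Flna averaged 35.0 and caldesmon (Cald1) 33.7. Smtn (smoothelin) averaged 22.3, Tpm2 4.31 and Mylk 3.88. Myh11, the smooth muscle myosin heavy chain and the most specific marker of mature smooth muscle, averaged 0.0535 and reached at most 0.269 in any library. Of the 9 genes tested, limma called 0 in each of the 6 comparisons. At an unadjusted p under 0.05, 1 was higher and 1 lower in 12/- against the normal genotypes and likewise against +/12, 2 were higher in 12/- and 1 in +/12 against +/+, and 0 passed in +/vg or +/- against +/+. Csrp1 had 61.8 ± 9.68 in 12/- (SD, n = 3), against 40.7 ± 5.70 in the normal genotypes (SD, n = 12), and did not pass (limma adjusted p = 0.0768).

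The summed level of the serum response factor list was highest in +/vg replicates 1 and 2 (290 and 268), to a large part through Cyr61. Cyr61, a secreted matrix protein induced by serum response factor and YAP, had 141, 134 and 39.2 scaled FPKM in the 3 +/vg libraries, against 34.0, 41.7 and 27.0 in +/+. Ctgf, its relative, had 22.5, 21.7 and 6.35 in +/vg, against 5.66, 4.20 and 6.08 in +/+. Srf itself had 20.3, 18.6 and 12.4 in +/vg, against 13.2, 13.7 and 8.72 in +/+. In 12/- replicate 1, Srf was 18.3 and Ctgf 14.4. Not all genes of the list followed. Mkl1 had 3.30 and 3.55 in +/vg replicates 1 and 2, against up to 5.03 in +/12 replicate 3. Csrp2 had 52.4 and 49.8 there, against 81.0 in 12/- replicate 3. The same +/vg libraries, replicates 1 and 2, had the highest Tagln and Cnn1 levels of all 16. Acta2 and Myl9 did not follow. Acta2 had 7.15 and 6.56 in these libraries, against 9.16 to 11.7 in +/+. Myl9 had 30.5 and 31.9, against up to 53.3 in +/12 replicate 3. A link between this list and the 8 genes was not tested. Replicates 1 and 2 of +/vg lie in the high range of library numbers and replicate 3 in the low one. The 9 genes of the list included 0 that limma called in any comparison, with 4 higher at an unadjusted p under 0.05 in +/vg against +/+, 1 higher in 12/- against the normal genotypes, 1 higher in 12/- against +/+ and 0 in the other 3 comparisons.

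Of 14 other pericyte genes 9 were tested, and limma called 1. Ndufa4l2, a mitochondrial protein that marks pericytes of the adult brain and is also induced by low oxygen, had 6.62, 4.76 and 4.79 scaled FPKM in 12/-, against 0 to 1.08 in the 12 normal libraries. It was listed at 0 in 12/vg. Ndufa4l2 passed the filter only through 12/-, with a mean of 1.26 scaled FPKM over 16 libraries but 0.332 in the normal genotypes. The list was also chosen with earlier results of these data known, so that its p-values are not independent tests. With these limits, Ndufa4l2 rose in 12/- by 2.28 ± 0.20 on the log2 scale against the normal genotypes (SE, limma adjusted p = 6.27e-05). It rose by 2.10 against +/12 (limma adjusted p = 0.00249, but adjusted p = 0.206 at a pseudocount of 0.1). The remaining 8 tested pericyte genes were not called.

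The other pericyte genes differed in level and in the order of the genotypes. Rgs5, a regulator of G protein signalling, averaged 0.805 scaled FPKM and Kcnj8, a potassium channel subunit, 0.116, with 9 libraries listed at 0 for Kcnj8. Notch3, the Notch receptor of mural cells, had 2.26, 2.55 and 1.29 in 12/-, against 1.13 to 2.39 in the normal genotypes. Mcam, an adhesion molecule of mural cells and endothelium, was the most abundant at 54.9, 32.5 and 45.6 in 12/-, against 22.4 to 38.9, and did not pass (limma adjusted p = 0.300). Foxc1, a forkhead factor of mesenchyme and mural precursors, was also low in 12/- and 12/vg, with 4.25, 3.92 and 4.50 in 12/- and 3.02 in 12/vg, against 4.39 to 6.17 in the normal genotypes. All 12/- libraries lay below those of +/12 and +/+ for Foxc1, as they did for 6.84% and 9.46% of all genes. The log2 difference of Foxc1 from the normal genotypes of -0.28 ± 0.09 did not pass (SE, limma adjusted p = 0.226). For Foxc2, its relative, 12/- libraries had 7.37 to 9.43, against 10.6 to 12.5 in +/+, where 9.46% of all genes lay lower. The +/vg and +/12 libraries also lay below +/+ for Foxc2, as for 6.28% and 5.97% of all genes. Cd248, a surface protein of pericytes and fibroblasts, had 0.743 to 0.921 in 12/- and 3.86 in 12/vg, against 1.04 to 1.35 in +/12. Against +/12, 6.84% of all genes lay lower in 12/- in this way, and Cd248 overlapped between 12/- and +/+.

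Genes of signalling between endothelium and mural cells were mostly well expressed. Of 20 such genes, 16 were tested, and 1 was called, in 12/- against the normal genotypes. Acvrl1, an endothelial receptor of the BMP family, had 16.5 ± 2.90 in 12/- (SD, n = 3), against 10.3 ± 1.23 (SD, n = 12), a log2 difference of 0.63 ± 0.12 (SE, limma adjusted p = 0.0224). The call was lost without scaling, with the range covariate (adjusted p up to 0.277 over all alternatives) and without any of the 3 12/- replicates. Pdgfb, the ligand of PDGFRB, had 23.4 ± 6.70 in 12/-, against 12.9 ± 3.98 in the normal genotypes. Every 12/- library exceeded every normal library, as for 1.91% of all genes. The margin was narrow, between 19.20 in 12/- replicate 2 and 19.05 in +/- replicate 3. The difference of 0.83 ± 0.27 did not pass (limma adjusted p = 0.225). Eng, the endothelial TGF-beta coreceptor, was the most abundant of the list with a mean of 63.7.

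**Figure D3:**
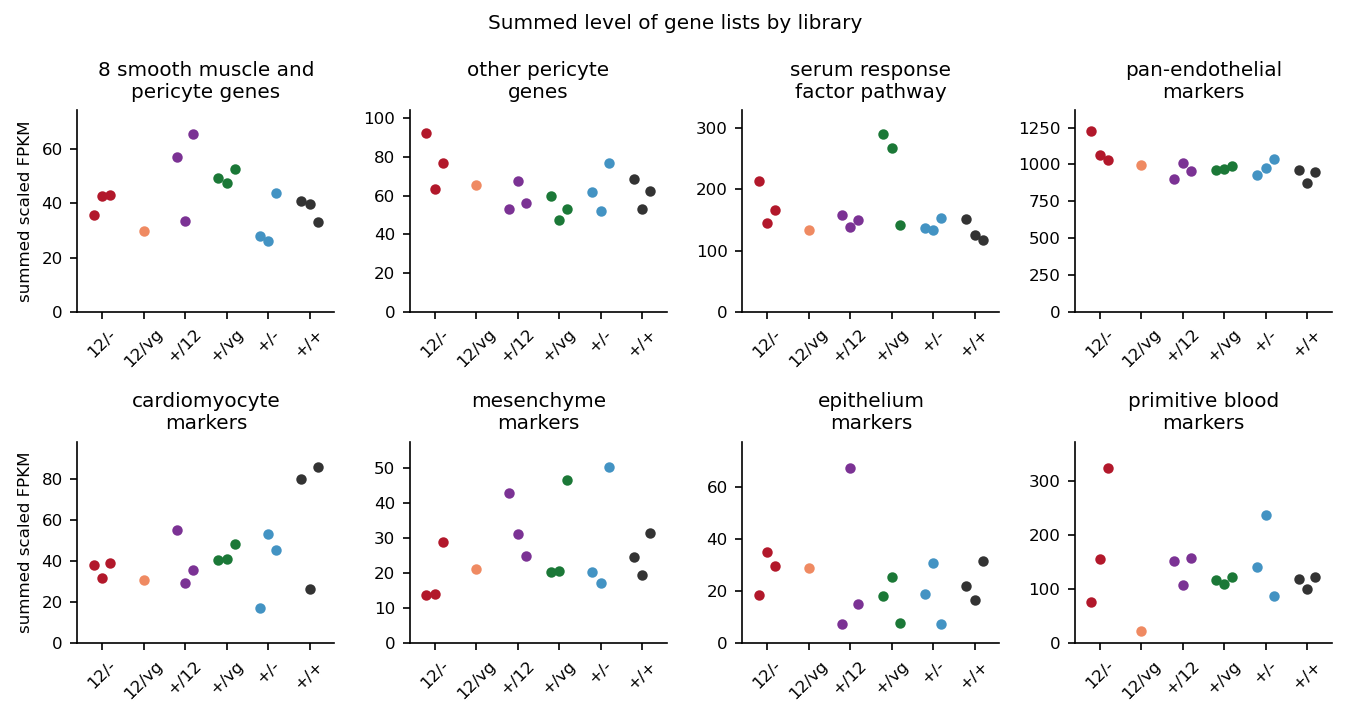
Summed scaled FPKM (linear axis from 0) of gene lists in each library, by Notch1 genotype; each point is a library. The sum of the serum response factor list is high in +/vg replicates 1 and 2 (290 and 268), where Cyr61 alone had 141 and 134. The cardiomyocyte sum is high in +/+ replicates 1 and 3 (80.4 and 85.9). The mesenchyme sum is lowest in 12/- replicates 1 and 2 (13.8 and 14.2).

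Marker lists of other cells gave no limma calls in any of the 6 comparisons: 0 of 9 cardiomyocyte genes tested, 0 of 5 mesenchymal, 0 of 4 epithelial and 0 of 3 blood genes. At an unadjusted p under 0.05 there was 1 blood gene higher in each of the 3 comparisons of 12/- and 0 in the other 3, and 0 mesenchymal or epithelial genes in all 6. For the cardiomyocyte genes there were 0 in 12/- against the normal genotypes and against +/12, while against +/+ they were lower in the numbers given with Acta2. Skeletal muscle precursor genes summed to 0.596 to 1.37 scaled FPKM in 12/-, against 0.687 to 4.22 in the normal genotypes. Myf5 and Myod1 were listed at 0 in all 12/- libraries, but their medians over all 16 libraries were also 0. The neural crest and neural list summed to 27.2 to 38.9 in 12/-, against 19.6 to 39.4. Nearly all of it came from Nes, an intermediate filament gene that endothelium also expresses. The crest factor Foxd3 was listed at 0 in all 12/- libraries, but its median over all 16 libraries was also 0. Epithelial genes, led by the keratin Krt18, summed to 18.5 to 35.2 in 12/-, against 7.22 to 67.4, and globins and other blood genes to 75.9 to 324, against 87.1 to 238. Of the pan-endothelial list, 1 of 12 genes was called, Flt1, a VEGF receptor, at 48.4 ± 3.04 in 12/- (SD, n = 3), against 28.6 ± 3.72 (SD, n = 12). It rose by 0.74 ± 0.12 (SE, limma adjusted p = 0.00706), a call lost with the range covariate and without 12/- replicate 1 or 2 (adjusted p up to 0.0906).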

How the data were processed

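RNA was measured in 16 libraries. The submitters' processing notes name TopHat2 2.0.9 as a tool and mm9 as the genome. The authors deposited 1 table per library of 28107 transcripts. Per the file headers this is cufflinks output, with FPKM and coverage for each transcript. The deposited coverage divided by FPKM was constant within a library and gives its aligned gigabases. Not given in the sources used here are the strand setting, the read length and the version of cufflinks. FPKM is not a count, so counts and counting intervals were not computed, and the 2 libraries under 1 gigabase are the least precise.

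Transcript FPKM was summed per symbol (Python 3.11.15, pandas 2.3.3), without 211 symbols whose status was not OK in some library. Libraries were scaled by median ratios over 8610 genes. Those with a mean FPKM of 1 or more (10550 genes) were fitted as log2(scaled FPKM + 1) with limma 3.58.1 in R 4.3.3 (lmFit, eBayes with trend, 6 genotypes, 10 residual degrees of freedom, two-sided). Differences therefore understate the change of low genes. Genes were called at a Benjamini-Hochberg adjusted p under 0.05 over all genes tested. Standard errors of the 8 genes come from their own residual spread. The fit was tested on simulated data.

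The 8 genes and the 12 other lists (133 entries, 129 with values) were chosen with earlier results of these data known. Besides the 8, the text names called genes of each list, some of the abundant genes and the 5 most alike by Pearson's r to Acta2, Tagln, Pdgfrb and Des. Further list genes (Myl2, Myh11, Csrp1, Ctgf, Srf, Rgs5, Kcnj8, Notch3, Foxc1, Foxc2, Cd248, Pdgfb, Myf5, Myod1 and Foxd3) and the CArG-like element were chosen after values or sequences were seen. So were Tnni3, Mkl1, Smtn, Tpm2, Mylk, Col1a1, Lum and Postn. The labels spell +/+ in different ways, taken as 1 group, and number no replicates, so replicates are in accession order. Since the number of embryos per library is unknown, p-values reflect differences between libraries that can be technical. Alternatives changed the pseudocount, filter, scaling, covariate, groups fitted, transcripts and libraries.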

Additional observations from a re-analysis of the deposited data

How the results depend on the processing

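No paired analysis was possible because the labels give no replicate number within a genotype. For 12/- against the mean of the normal genotypes, 83 genes were called, 47 with the library number range as a covariate and 137 without the 2 shallow libraries. Leaving out 1 library gave 28 (12/- replicate 1) to 140 (+/- replicate 2). In 12/- against +/12, 22 genes were called, 35 with the covariate, 3 with the groups fitted alone and 40 without the shallow libraries, and 11 (12/- replicate 1) to 30 without 1 library. In 12/- against +/+, 64 were called, 23 with the covariate, 41 with the groups alone, 112 without the shallow libraries, and 20 (12/- replicate 1) to 93 without 1 library. For +/- against +/+, 0 were called, 1 each with a filter of 0.1, with the groups alone and with the highest transcript alone, and 0 to 4 without 1 library. For +/vg against +/+ it was 0, with 1 for the groups alone and 0 to 3 without 1 library. For +/12 against +/+ it was 0, with 1 under the covariate and 0 to 2 without 1 library.

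The median log2 difference of the 8 genes for 12/- against +/12 was -0.14, and -0.43 at a pseudocount of 0.1. Without 1 library the medians ran from -0.13 to 0.03 for 12/- against the normal genotypes, -0.24 to -0.05 against +/12 and -0.13 to 0.07 against +/+. For +/-, +/vg and +/12 against +/+ they ran from -0.24 to 0.02, -0.04 to 0.21 and -0.06 to 0.09. Of 696 differences of single members recomputed, 662 moved by less than 1 residual SD, and of the other 34, 20 did so at a pseudocount of 0.1, the construction of which widens differences of low genes. For the remaining 14 the cause was not tested. Low depth limits Cnn1, Myocd and Cspg4 most.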
